A study of Mus musculus with 8 samples.

Results

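The cytosolic ribosomal proteins are the proteins of the 2 subunits of the ribosome that works outside the mitochondria, and their genes were followed here as 81 members in mouse liver. Members were genes whose symbol begins with Rps or Rpl followed by a number, with or without a letter, together with Rplp0, Rplp1, Rplp2 and Rpsa, without the Rps6k kinases, and with 10 counts or more on average over the 8 libraries. Of 85 genes with such a symbol, 81 met that minimum, 33 of the small subunit (Rps) and 48 of the large subunit (Rpl), out of 19267 genes in the table. The members just inside the minimum were Rps10, with a mean of 20.4 counts, Rpl13a with 41.3, Rps4l with 126 and Rpl6l with 146. The 4 genes just outside it were Rpl24 with 6.63, Rps3a2 with 4.25, Rpl3l with 3.25 and Rps3a3 with 1.38. GENCODE M21 lists 79 of the 81 as protein coding, Rps4l as a transcribed processed pseudogene and Rpl6l as a processed pseudogene, and neither of these passed the test in any comparison. Rpl24, Rps10 and Rpl13a are core components of the ribosome, so their low counts are a limit of this table for those genes.

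Total RNA of liver was sequenced from male C57BL/6 mice aged 9 weeks, in 8 libraries of 4 groups with 2 libraries each. WT mice and Elf4fl/fl-Villin-Cre mice (Elf4-/-) received a Lieber-DeCarli liquid diet from 6 weeks of age for 21 days. The mutants lack the ETS transcription factor ELF4 in the intestinal epithelium because the Villin promoter drives Cre there. The study's methods describe the WT mice of this feeding as Cre mice. In the EtOH diet alcohol made up 5% by weight per volume, and in the Control diet maltose dextrin supplied the same calories. The groups are called WT-Control, WT-EtOH and, for the mutants, Elf4-/--Control and Elf4-/--EtOH. The sources do not say whether a library is 1 mouse, so p-values measure the spread between these libraries. The deletion was made in the gut, and Elf4 had 6 to 36 counts in the 8 liver libraries, 6 to 34 of them in the Elf4-/- livers, so the gene does not check the labels here.

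A ribosome is built from ribosomal RNA and a nearly fixed set of proteins, each of which is needed in about equal numbers. Their mRNAs are short and abundant, and most begin with a C followed by a run of pyrimidines, the terminal oligopyrimidine (TOP) tract, through which the growth kinase complex mTORC1 and the binding protein LARP1 set how well they are translated. The liver makes most plasma proteins, and its ribosome content follows feeding and growth. Read counts measure the mRNA and not its translation.

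The DNA around the transcription start is shown first for 4 members that passed the test in WT and for 3 that did not, because the tract named above is sought there. Each line gives 85 bases of the RefSeq window on GRCm38.p6, from 60 bases before to 25 bases from the annotated start, 5′ to 3′ on the strand of the gene, with runs of C followed by at least 5 further C or T bases in capitals. Rpl4, Rpl5, Rps9 and Rps3a1 rose under the EtOH diet in WT, and Rpl14, Rpl28 and Rps18 did not pass the test. The capitals of Rpl4 and Rpl5 end before the annotated start, so they are not shown to begin the mRNA. Of windows not printed, those of Rps4x, Rpl41, Rpl9 and Rplp0, which also rose, held no such tract. Those of Rpl10a and Rplp2, which rose as well, did.
Rpl4 (chr9:64173327-64173411, plus strand): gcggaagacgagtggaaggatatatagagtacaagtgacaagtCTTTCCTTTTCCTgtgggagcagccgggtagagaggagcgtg
Rpl5 (chr5:107900468-107900552, plus strand): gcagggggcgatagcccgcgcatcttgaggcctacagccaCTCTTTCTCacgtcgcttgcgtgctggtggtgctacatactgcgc
Rps9 (chr7:3703981-3704065, plus strand): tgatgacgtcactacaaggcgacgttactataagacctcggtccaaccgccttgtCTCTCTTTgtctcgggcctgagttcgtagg
Rps3a1 (chr3:86142644-86142728, minus strand): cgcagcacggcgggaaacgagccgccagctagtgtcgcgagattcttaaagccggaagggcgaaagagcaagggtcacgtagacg
Rpl14 (chr9:120571457-120571541, plus strand): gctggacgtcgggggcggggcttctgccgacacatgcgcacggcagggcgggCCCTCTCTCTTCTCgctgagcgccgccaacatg
Rpl28 (chr7:4792905-4792989, plus strand): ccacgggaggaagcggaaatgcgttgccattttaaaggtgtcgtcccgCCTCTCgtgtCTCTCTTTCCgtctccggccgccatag
Rps18 (chr17:33955641-33955725, minus strand): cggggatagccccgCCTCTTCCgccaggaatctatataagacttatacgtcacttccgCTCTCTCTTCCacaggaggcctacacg
A tract of this form between 30 bases before and 25 after the start, read on the strand of the gene, was found in 46 of 70 windows of the 59 members listed (65.7%) and in 37.9% of all 32851 promoter windows. It was found in 60.9% of the 23 windows of members that passed the test in WT and in 68.1% of the 47 windows of those that did not. The letters CCGGAA, the core that ETS factors bind, were found on either strand anywhere in the 300-base window in 35 of 70 member windows and 14.9% of all windows, in 34.8% of windows of members that passed and in 57.4% of the others. ATGGCGG, a core of the YY1 site, was found on either strand in 14 of 70 member windows and 4.05% of all windows. It too was less frequent in windows of members that passed, at 8.7% against 25.5% of the others. These splits were not tested. Each motif was searched on its own, whatever other motif it overlapped. These matches describe the letters of the windows and are no evidence of binding, and 22 members had no window.

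The 81 genes together took between 0.815% and 2.11% of all counts in a library. The share was 0.815% and 1.204% in the WT-Control libraries, and both WT-EtOH libraries lay above them at 1.92% and 2.11%. The Elf4-/- livers held 1.25% and 1.30% on the Control diet and 1.35% and 1.81% on EtOH, again without overlap but with a smaller gap. In the order of these sentences the group means were 1.01% ± 0.275 (SD, n = 2), 2.02% ± 0.132, 1.28% ± 0.0396 and 1.58% ± 0.321. No test was made on these shares.

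**Figure D1:**
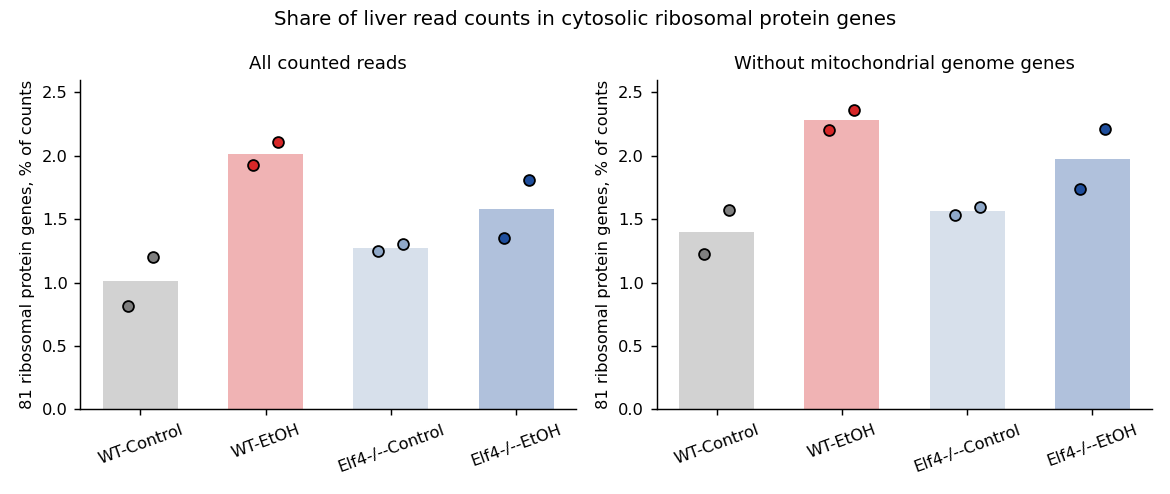
Share of read counts in the 81 ribosomal protein genes, in percent, for each library (points) and each group (bars, mean of 2 libraries), over all counts on the left and over counts without genes of the mitochondrial genome on the right. WT-EtOH was highest on both panels, at 2.02% and 2.28%, and WT-Control lowest, at 1.01% and 1.40%.

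The share also depends on what else was counted. Genes of the mitochondrial genome took 33.7% and 23.4% of the counts of the WT-Control libraries, 12.5% and 10.8% of those of WT-EtOH, and between 18.3% and 22.1% in the 4 Elf4-/- libraries. Without them, the ribosomal protein share was 1.40% ± 0.243 (SD, n = 2) for WT on the Control diet and 2.28% ± 0.117 for WT on EtOH, and 1.57% ± 0.0460 and 1.98% ± 0.336 for Elf4-/- on the same diets. WT-Control replicate 1 had both the highest mitochondrial share and the lowest ribosomal protein share of the 8 libraries. It was the lowest library for 69 of the 81 members, and the highest library for none. Library totals ran from 6171051 to 9157362 counts. Below, CPM is the count per 1000000 reads after TMM scaling of the library sizes.

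In WT livers, 31 of 81 members (38.3%) were higher under the EtOH diet and 0 were lower by edgeR's quasi-likelihood test at a Benjamini-Hochberg adjusted p under 0.05, where 10.8% of the 13993 genes tested were higher and 10.8% lower. At an unadjusted p under 0.05, 0 members were lower, against 18.3% of all genes. DESeq2 called 35 members higher (43.2%), against 9.94% of all genes, and 0 members lower. The median log2 fold change of the members was 0.65, against 0.01 for all genes tested. Both WT-EtOH libraries lay above both WT-Control libraries for 61 members (75.3%), against 34.1% of all genes, and below them for 3 (3.70%), against 32.7% of all genes. The 31 members that passed rose by 0.78 to 1.67 on the log2 scale, with a median of 1.05. All 81 members passed the filter on low counts.

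**Figure D2:**
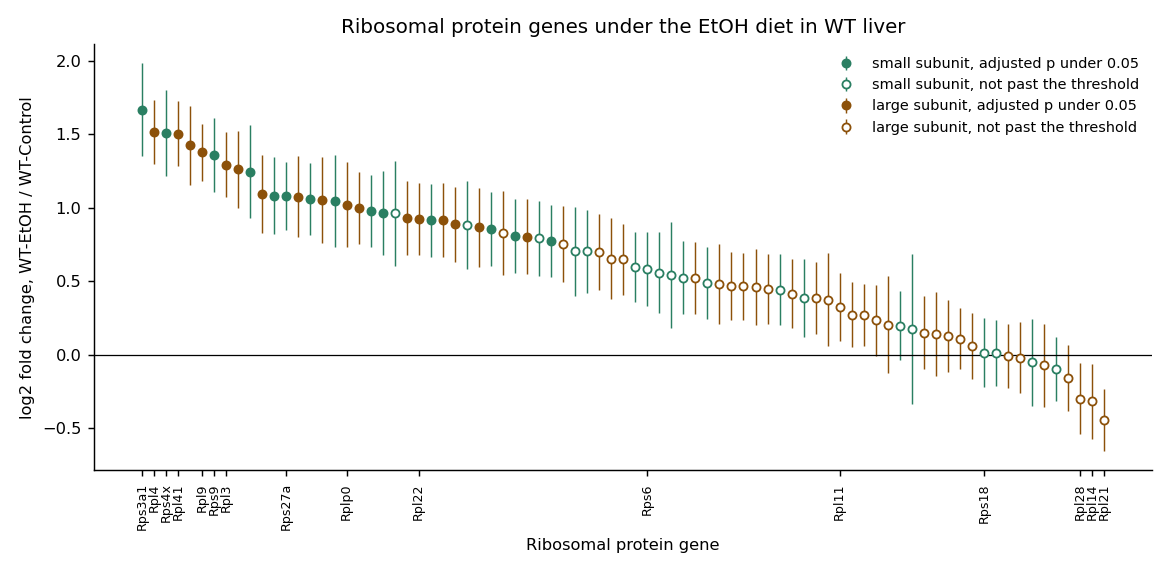
Log2 fold change of each of the 81 ribosomal protein genes, WT-EtOH against WT-Control, with its standard error, ordered by size and coloured by subunit and some of them labelled. Filled points passed an adjusted p under 0.05, and these 31 lay between 0.78 and 1.67, while the lowest point, Rpl21, lay at -0.45.

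The number of members that passed depended on single libraries. Without WT-Control replicate 1, 7 members (8.64%) passed, against 5.24% of all genes that were higher in that fit, and the median was 0.36. Without WT-EtOH replicate 1 the number was 10 (12.3%, against 3.73% of all genes), and without WT-EtOH replicate 2 it was 5 (6.17%, against 2.55%). Without Elf4-/--Control replicate 1 or replicate 2, which hold no WT liver but enter the scaling, the filter and the shared estimate of the spread, it was 17 (21.0%), against 7.47% and 7.48% of all genes. With 1 library left in a group, that library is assumed to vary like those of the other groups. The 31 were chosen for a rise in these same libraries, so refits of them are no separate test of its direction. All 31 kept a positive log2 fold change in each of the 19 alternative fits, and Rpl3, Rpl4, Rpl9, Rpl41 and Rps9 passed in all 19.

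These 5 genes were singled out after their values were seen, and they encode parts of both subunits. Rpl4 (chromosome 9, 64173375 to 64178666, plus strand, GRCm38) encodes a large subunit protein that lines the tunnel through which the new chain leaves. Its CPM was 390.4 and 410.0 in WT livers on EtOH against 125 and 156 on the Control diet, and 329 and 287 in Elf4-/- livers on EtOH against 168 and 178 on the Control diet. Each EtOH group lay above the Control group of its genotype without overlap, and the WT change was 1.51 ± 0.22 on the log2 scale (SE, adjusted p = 0.00281). Rpl41 (chromosome 10, 128548114 to 128549305, minus strand), which encodes the smallest ribosomal protein, had a CPM of 92.9 and 127 in WT livers on the Control diet and 324 and 299.5 on EtOH, and in Elf4-/- livers it was 105 and 111 on the Control diet and 218 and 192 on EtOH. Its WT change was 1.51 ± 0.22 (adjusted p = 0.00308).

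Rpl9 (chromosome 5, 65388364 to 65391444, minus strand), a protein of the large subunit near the base of the stalk, had the smallest spread between replicates of all members, with an SD of 0.12 on the log2 scale. Its CPM was 48.9 and 53.5 in Control and 129 and 137 in EtOH livers of WT mice, and 50.5 and 58.3 against 94.0 and 111 in those of Elf4-/- mice. The 2 Control groups overlapped, both EtOH groups lay above them, and the WT change was 1.38 ± 0.19 (adjusted p = 0.00257), the smallest adjusted p of any member.

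Rpl3 (chromosome 15, 80077791 to 80091868, minus strand) encodes a large subunit protein that reaches toward the site of peptide bond formation. Its CPM was 169 and 160 in WT livers on EtOH against 56.3 and 77.6 on the Control diet, and 142 and 164 in Elf4-/- livers on EtOH against 66.3 and 74.7 on the Control diet. The 4 EtOH libraries all lay above the 4 Control libraries, and the WT change was 1.30 ± 0.22 (adjusted p = 0.00464). Rps9 (chromosome 7, 3703993 to 3706897, plus strand), a small subunit protein that is placed early in assembly, had a CPM of 65.8 and 105 in WT livers on the Control diet and 226 and 212 on EtOH, and in Elf4-/- livers it was 94.9 and 116 on the Control diet and 165 and 186 on EtOH. Its WT change was 1.36 ± 0.25 (adjusted p = 0.00670).

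**Figure D3:**
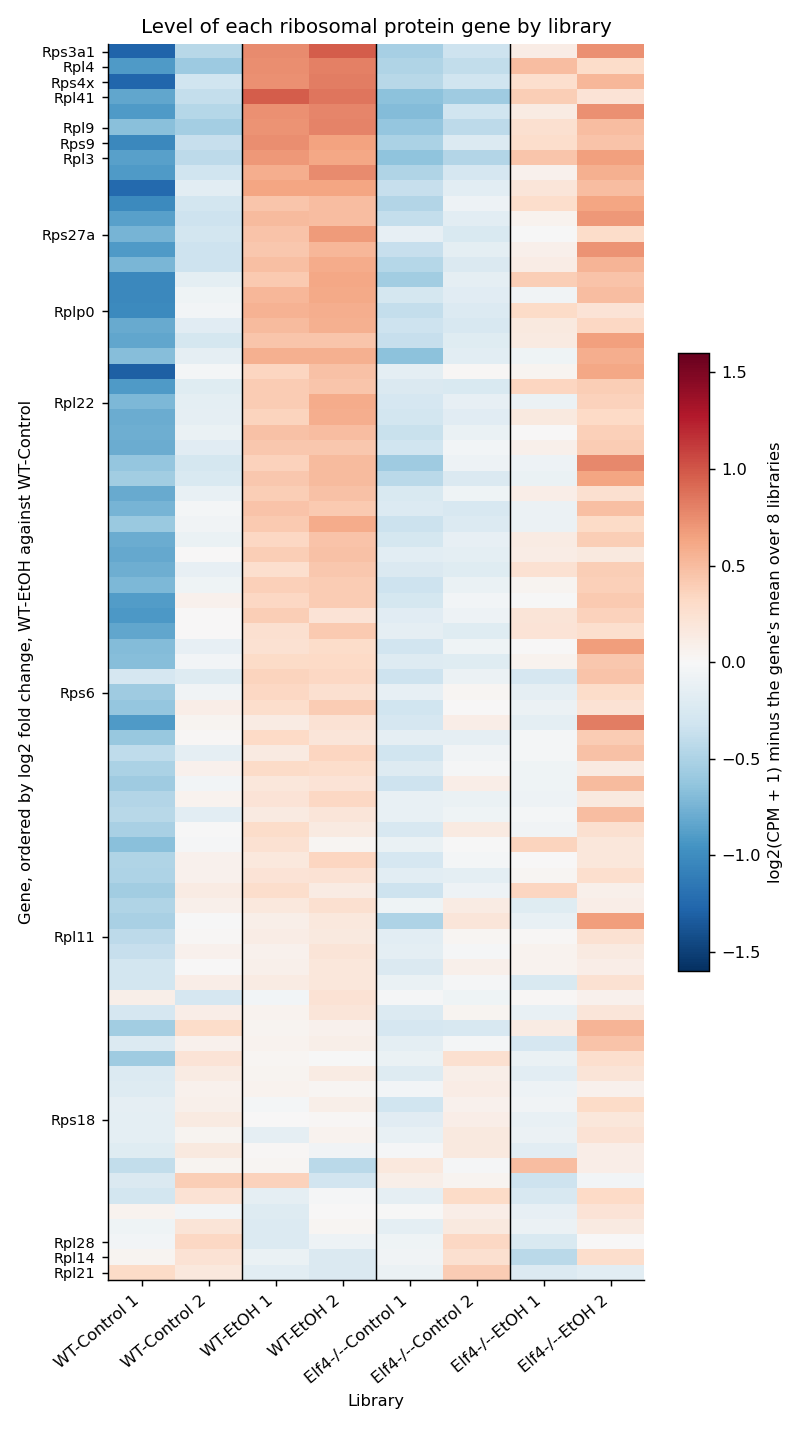
Level of each of the 81 genes in each of the 8 libraries, as log2(CPM + 1) minus the mean of that gene over the libraries, red above and blue below it, with genes ordered by their WT change and some of them labelled. WT-Control replicate 1 is the lowest library for 69 genes, and the WT-EtOH libraries are red for the genes in the upper part.

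Of the small subunit, 14 of 33 members rose in WT, with a median over all 33 of 0.78. Rps3a1 (chromosome 3, 86137940 to 86142702, minus strand), which lies beside the channel that the mRNA leaves through, had the largest rise of all members at 1.67 ± 0.31 (adjusted p = 0.00710). Its CPM was 79.4 and 143 in Control and 327 and 379 in EtOH livers of WT mice, and 134 and 153 against 211 and 323 in those of Elf4-/- mice, and the 2 WT-Control libraries stood further apart than those of Rpl4 or Rpl9. Rps4x, encoded on the X chromosome, rose by 1.51 ± 0.29 (adjusted p = 0.00795). Among the other members of the small subunit that rose were Rps9, Rps15a, Rps27a, Rps24, Rps23, Rps13, Rps3, Rps20, Rps14 and Rps7. Rps3, at the entry of the mRNA channel, changed by 0.97 ± 0.29 (adjusted p = 0.0397). Rps6, the protein that the S6 kinases phosphorylate, had a log2 fold change of 0.58 ± 0.25 and did not pass (adjusted p = 0.121). Rps12, at 0.0517, had the adjusted p just outside the threshold.

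Of the large subunit, 17 of 48 members rose in WT, with a median over all 48 of 0.47. Besides Rpl4, Rpl41, Rpl9 and Rpl3 these were Rpl5, Rpl10a, Rplp2, Rpl30, Rpl32, Rplp0, Rpl7, Rplp1, Rpl22, Rpl7l1, Rpl6, Rpl8 and Rpl23. Small subunit genes made up 39.4% and 40.7% of the summed member CPM of WT livers on the Control diet and 42.4% and 42.7% on EtOH. The share was 40.7% and 40.1% for Elf4-/- livers on the Control diet and 41.2% and 41.5% on EtOH. The small subunit share did not overlap between the EtOH and the Control group of either genotype and was not tested.

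The P stalk is the flexible arm of the large subunit that recruits translation factors, and all 3 of its genes rose in WT. Rplp0, its base, had a CPM of 74.6 and 148 on the Control diet and 223 and 228 on EtOH in WT, a change of 1.02 ± 0.29 (adjusted p = 0.0339). Rplp1 had 104 and 171 on the Control diet and 259 and 266 on EtOH in WT, a change of 0.93 ± 0.25 (adjusted p = 0.0277). Rplp2 had 43.4 and 72.5 on the Control diet and 122 and 126 on EtOH in WT, a change of 1.09 ± 0.27 (adjusted p = 0.0190). For each of the 3 genes, WT-Control replicate 1 was the lower of the 2 WT-Control libraries by a wider gap than separated the 2 WT-EtOH libraries. In Elf4-/- livers Rplp0 had 116 and 131 on the Control diet and 188 and 178 on EtOH, Rplp1 had 166 and 166 against 248 and 258, and Rplp2 had 64.3 and 84.1 against 109 and 138. The groups did not overlap there either, and the log2 fold changes of 0.56 ± 0.29, 0.61 ± 0.25 and 0.73 ± 0.27 did not pass.

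Rpl5 and Rpl11 enter the ribosome together with the 5S ribosomal RNA, and free Rpl5 and Rpl11 bind the p53 ligase MDM2. Rpl5 (chromosome 5, 107900502 to 107909005, plus strand) had a CPM of 234 and 242 in WT livers on EtOH against 74.8 and 102 on the Control diet, and 155 and 235 in Elf4-/- livers on EtOH against 86.7 and 113 on the Control diet, and rose in WT by 1.43 ± 0.27 (adjusted p = 0.00706). Rpl11 had a CPM of 202 and 273 in WT livers on the Control diet and 293 and 301 on EtOH, and in Elf4-/- livers it was 240 and 275 on the Control diet and 272 and 320 on EtOH, with a WT log2 fold change of 0.32 ± 0.23 that did not pass (adjusted p = 0.335). A test of the difference between these genes was not made.

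None of the 5 most abundant members passed in WT. The 5 highest by mean CPM over the 8 libraries were Rps18 (424), Rpl19 (412), Rpl10 (348), Rps2 (345) and Rpsa (335), and their WT log2 fold changes were 0.01 ± 0.23, 0.13 ± 0.24, 0.46 ± 0.26, 0.39 ± 0.27 and 0.49 ± 0.25. Rps18, of the head of the small subunit, had a CPM of 379 and 467 in Control and 425 and 429 in EtOH livers of WT mice, and 372 and 456 against 388 and 477 in those of Elf4-/- mice, with overlap between all groups. Per kilobase of transcript, mean levels ran from 3.12 CPM per kilobase for Rps10 to 757 for Rps18, over transcripts of 345 to 5130 bases. The 4 lowest after Rps10 in mean CPM were Rpl13a (5.55), Rps4l (17.3), Rpl6l (19.3) and Rpl7l1 (33.9), and Rps10 itself was at 2.77.

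9 members had a negative log2 fold change in WT and none of them passed. Rpl21 had the lowest, -0.45 ± 0.21 (adjusted p = 0.160), with a CPM of 88.3 and 84.2 in WT livers on EtOH against 123 and 112 on the Control diet, and 85.0 and 88.0 in Elf4-/- livers on EtOH against 92.8 and 132 on the Control diet. In both genotypes the EtOH libraries lay below the Control libraries for this gene. Rpl14 was next at -0.32 ± 0.26 and Rpl28 at -0.30 ± 0.24, and both turned positive when libraries were scaled by their totals alone, which moved the median of all genes to 0.44. With that scaling the median of the members was 1.07, or 0.63 above all genes. Under it 59 members were called higher, against 24.5% of all genes.

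Several members have a close relative listed under its own symbol. Rpl7 had a WT change of 0.998 ± 0.25 (adjusted p = 0.0197) and its relative Rpl7l1, at lower CPM, a change of 0.92 ± 0.25 (adjusted p = 0.0300). Rpl22 rose by 0.92 ± 0.25 (adjusted p = 0.0261), with a CPM of 56.7 and 83.7 on the Control diet and 124 and 142 on EtOH in WT, whereas Rpl22l1, which can replace it in the ribosome, had 35.6 and 48.4 on the Control diet and 48.2 and 34.7 on EtOH in WT, a log2 fold change of -0.02 ± 0.24. Rps4x rose, and Rps4l, the processed pseudogene on chromosome 6, had a log2 fold change of -0.05 ± 0.30. Rps27 had a value of 0.60 ± 0.24 (adjusted p = 0.104) and Rps27l, a target of p53, one of -0.10 ± 0.22. The difference within each pair was not tested, and how reads that match both genes were counted is not given in the sources used here.

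In Elf4-/- livers, 2 of 81 members (2.47%) were higher under the EtOH diet, Rpl3 and Rpl9, and 0 were lower, where 1.71% of all genes were higher and 1.18% lower. That share of members is near the background. Rpl3 rose by 1.12 ± 0.22 (adjusted p = 0.0300) and Rpl9 by 0.91 ± 0.19 (adjusted p = 0.0387). At an unadjusted p under 0.05, 19 members (23.5%) were higher, against 10.9% of all genes, and 0 were lower, against 10.3%. The Elf4-/--EtOH libraries lay above both Elf4-/--Control libraries for 52 members (64.2%), against 25.8% of all genes, and below them for 2 (2.47%), against 26.3%. The median log2 fold change was 0.40, against 0.01 for all genes, and it was 0.17 without Elf4-/--EtOH replicate 2 and 0.58 without Elf4-/--EtOH replicate 1. No member passed in a fit of the 4 Elf4-/- libraries alone, or without any 1 of the Elf4-/--Control or WT-EtOH libraries. DESeq2 called 5 members higher (6.17%), against 3.23% of all genes, and 0 lower.

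Members that changed more in WT also changed more in Elf4-/-. Over the 81 genes the log2 fold changes of the 2 diet comparisons, which share no library, had a Pearson r of 0.88 and a Spearman rho of 0.87, against 0.75 and 0.69 over the 9264 genes that averaged 50 counts or more. These are correlations across genes, which are not independent replicates, and the points share the scaling of the libraries. Among members with large WT changes, Rpl41 had an Elf4-/- log2 fold change of 0.93 ± 0.22 (adjusted p = 0.0537) and Rpl5 one of 0.97 ± 0.27 (adjusted p = 0.0783). At the other end, Rpl21 had -0.38 ± 0.21 and Rpl28 -0.26 ± 0.24 in Elf4-/-. Rps10 lay off the common trend, with 0.84 ± 0.50 in Elf4-/- and 0.17 ± 0.51 in WT, at 8 to 33 counts a library.

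**Figure D4:**
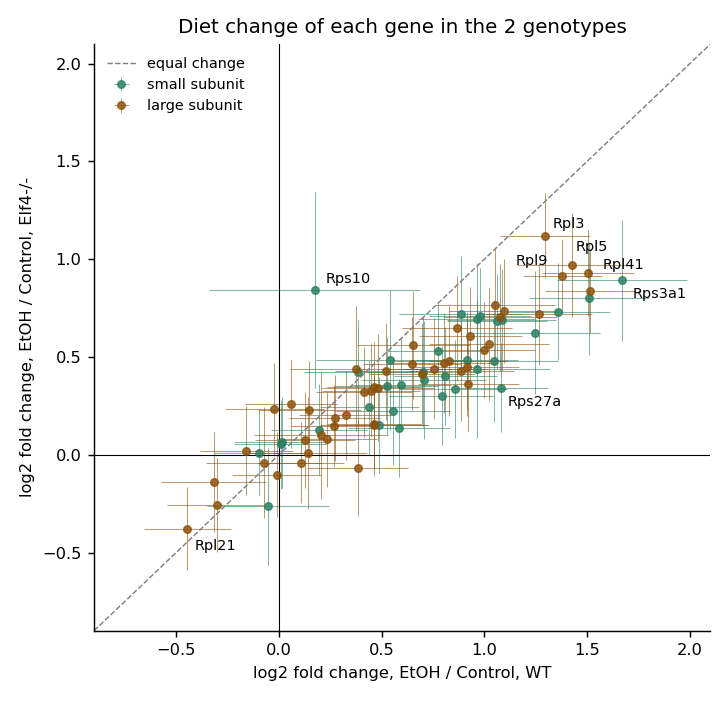
Log2 fold change under the EtOH diet in WT (horizontal) and in Elf4-/- (vertical) for the 81 genes, with standard errors on both axes and a dashed line of equal change. Most points above 0.5 in WT lie under the dashed line, and the Pearson r is 0.88.

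Whether the diet response differed by genotype was asked with the interaction of genotype and diet, and it passed for 0 of 81 members and for 0.0% of all genes by edgeR. DESeq2 called 0 members and 0.793% of all genes. At an unadjusted p under 0.05, 0 members were higher, against 4.94% of all genes, and 2 were lower (2.47%), against 5.15%. These were Rps27a, which encodes a fusion of ubiquitin and a small subunit protein, at -0.74 ± 0.32 (unadjusted p = 0.0456, adjusted p = 0.486), and Rpl4 at -0.68 ± 0.30 (unadjusted p = 0.0485, adjusted p = 0.492). Rps27a had a CPM of 95.3 and 130 in WT livers on the Control diet and 221 and 256 on EtOH, and in Elf4-/- livers it was 146 and 135 on the Control diet and 160 and 196 on EtOH. The median interaction of the members was -0.27, negative for 67 of 81, and without WT-Control replicate 1 it was -0.01.

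Between genotypes on the same diet no member passed. Under the EtOH diet 0 of 81 members were called, against 0.143% of all genes, and DESeq2 called 0 members, against 1.29%. At an unadjusted p under 0.05, 0 members were higher, against 6.18% of all genes, and 1 was lower (1.23%), against 4.32%. That gene was Rpl41, at -0.60 ± 0.22 (unadjusted p = 0.0203, adjusted p = 0.378, edgeR), the largest difference of a member in this comparison, and Rpl22l1 stood at the other end with 0.50 ± 0.24. The median of the members was -0.09, and it was 0.04 without Elf4-/--EtOH replicate 1 and -0.29 without Elf4-/--EtOH replicate 2.

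Under the Control diet 0 of 81 members were called, against 0.0143% of all genes, and DESeq2 called 0, against 0.565%. At an unadjusted p under 0.05, 0 members were higher, against 4.37% of all genes, and 0 were lower, against 2.94%. The median was 0.14, and it was -0.10 without WT-Control replicate 1. The largest differences were those of Rps28 (0.48 ± 0.36), Rps3a1 (0.37 ± 0.31) and Rplp2 (0.35 ± 0.27). Rps28 had a CPM of 23.5 and 58.0 in WT livers and 53.1 and 60.3 in Elf4-/- livers on this diet, and without WT-Control replicate 1 its log2 fold change was -0.03. Rps28 and Rps21, with an SD of 0.51 each between replicates on the log2 scale, were the least even members.

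The other genes of translation were read from the same fit. Beside the list counts that follow, 10.8% of all genes tested rose and 10.8% fell in WT, and 1.71% rose and 1.18% fell in Elf4-/-. Of 7 elongation factor genes, 5 rose in WT and 0 fell, with a median of 0.98. Eef2, which moves the ribosome along the mRNA, had a CPM of 225 and 381 in Control and 791 and 751 in EtOH livers of WT mice, and 334 and 401 against 507 and 544 in those of Elf4-/- mice, and rose in WT by 1.35 ± 0.28 (adjusted p = 0.0101). Eef1b2, an exchange factor for eEF1A, rose by 1.34 ± 0.35 (adjusted p = 0.0248), and Eef1a1, which brings the aminoacyl-tRNA, by 1.09 ± 0.27 (adjusted p = 0.0188). Of 29 initiation factor genes, 13 rose in WT and 0 fell, with a median of 0.41. The largest rises were those of Eif3i (1.51 ± 0.26, adjusted p = 0.00471), Eif1ax (1.42 ± 0.22, adjusted p = 0.00359) and Eif6 (1.36 ± 0.36, adjusted p = 0.0243), which keeps free large subunits apart from small ones. In Elf4-/- livers none of the genes in these lists passed, and the medians were 0.74 and 0.37.

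Other mRNAs that carry a TOP tract, a list that shares genes with the factors above, held 9 of 19 genes that rose in WT and 0 that fell, with a median of 0.83. Of the ribosome components named outside the Rps and Rpl pattern, Rack1, a scaffold on the small subunit, rose by 0.91 ± 0.25 (adjusted p = 0.0286), and Fau and Rpl36al did not pass. Of 32 genes of ribosome assembly, 7 rose and 1 fell in WT, with a median of 0.40. Tsr1, of small subunit maturation, rose in WT by 1.07 ± 0.20 (adjusted p = 0.00713) and in Elf4-/- by 1.06 ± 0.20 (adjusted p = 0.0284), and Nop10, of the pseudouridine machinery, rose in WT by 1.03 ± 0.30 (adjusted p = 0.0373). Ubtf, which opens ribosomal DNA to RNA polymerase I, fell by 0.70 on the log2 scale in WT (SE 0.20, adjusted p = 0.0341). None of 8 noncoding host genes of small nucleolar RNAs, which also begin with a TOP tract, passed, and their WT median was 0.12.

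These counts rested on single libraries as those of the members did. The share of all genes that passed as higher, given above for the same refits, was also smaller without WT-Control replicate 1 or either WT-EtOH library. A lower count there is therefore not particular to these lists. Without WT-Control replicate 1, 0 elongation factors, 4 initiation factors, 2 other TOP mRNAs and 1 assembly gene passed as higher in WT. Without WT-EtOH replicate 1 the counts were 0, 3, 0 and 1, and without WT-EtOH replicate 2 they were 0, 2, 0 and 0. For assembly genes, 3 and 4 passed without Elf4-/--Control replicate 1 and replicate 2, and 11 without either Elf4-/--EtOH library. The WT medians stayed above 0 whichever library was left out, at 0.82 to 1.13 for the elongation factors, 0.35 to 0.61 for the initiation factors, 0.57 to 0.84 for the other TOP mRNAs and 0.34 to 0.52 for assembly.

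**Figure D5:**
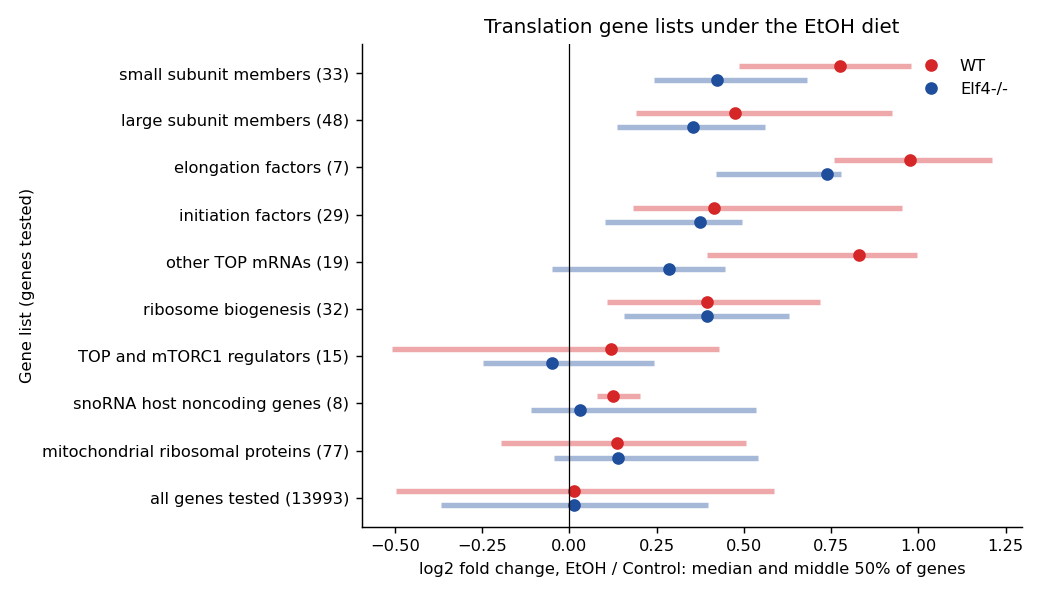
Median (point) and middle 50% (bar) of the log2 fold change under the EtOH diet for the 2 subunits, the other translation lists, mitochondrial ribosomal proteins and all genes tested, in WT (red) and Elf4-/- (blue), with the number of genes tested. In WT the elongation factors (0.98) and the other TOP mRNAs (0.83) lie furthest to the right, and all genes lie at 0.01.

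Of 15 genes that regulate TOP mRNAs and mTORC1, 1 rose and 3 fell in WT, with a median of 0.12, and the number that fell was 0 without WT-Control replicate 1 or either WT-EtOH library. Mtor, the kinase, fell by 0.60 on the log2 scale (SE 0.18, adjusted p = 0.0383), Tsc1, which restrains it, by 1.05 (SE 0.26, adjusted p = 0.0206), and Rps6kb2, an S6 kinase, by 0.86 (SE 0.18, adjusted p = 0.0111). Myc, a transcription factor known to drive ribosome assembly genes, rose by 2.96 ± 0.43 (adjusted p = 0.00295), from a CPM of 1.49 and 1.47 to 8.85 and 14.4. Elf4-/- livers had 4.92 and 6.27 on the Control diet and 12.1 and 7.56 on EtOH, and the gene did not pass there. The ribosomal proteins of mitochondria, which are encoded by other genes, moved both ways. Of 77, 14 rose and 7 fell in WT, with a median of 0.14, where 10.8% of all genes rose and 10.8% fell. In Elf4-/- 1 of the 77 rose, Mrpl15, where 1.71% of all genes rose.

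Cell type markers also differed between the diets in WT. All 6 Kupffer cell markers rose, with a summed CPM of 558 and 505 in WT livers on EtOH against 199 and 151 on the Control diet, and 199 and 189 in Elf4-/- livers on EtOH against 142 and 139 on the Control diet. All 5 endothelial markers rose, at 74.4 and 44.0 on the Control diet and 206 and 252 on EtOH in WT, and 3 of 5 stellate cell markers rose, at 61.2 and 25.4 and at 221 and 288. Of the 5 hepatocyte markers in the table, 1, Apoa1, passed as lower. At an unadjusted p under 0.05, 3 of the 5 were lower, and all 5 had a negative log2 fold change. The summed hepatocyte CPM was 52880 and 73660 on the Control diet and 38290 and 31110 on EtOH in WT. No defining marker of these 4 lists was at 0 in all libraries, and the hepatocyte sum was the largest of the 4 in every library. In Elf4-/- livers 1 of the 6 Kupffer markers passed, Marco, and the ribosomal protein median was 0.40. No endothelial, stellate or hepatocyte marker passed there. The summed stellate CPM in Elf4-/- livers was 109 and 78.3 on the Control diet and 291 and 178 on EtOH. The hepatocyte sum was 63080 and 69700 against 39520 and 51390, and the endothelial sum 112 and 110 against 172 and 104. With 1 library left out, 4 to 6 Kupffer, 2 to 5 endothelial and 2 to 3 stellate cell markers passed as higher in WT, and the endothelial count was 3 without WT-Control replicate 2 or WT-EtOH replicate 1 and 2 without WT-EtOH replicate 2. Markers also moved in the genotype comparisons. Between Elf4-/- and WT on EtOH, 2 of 6 Kupffer markers passed as lower and all 6 were lower at an unadjusted p under 0.05, with a median of -1.42. At that unadjusted p, 2 of 5 endothelial markers were lower (median -0.79) and 2 of 5 hepatocyte markers higher (median 0.41). The 5 stellate markers had 0 either way (median 0.02). On the Control diet no marker of these 4 lists passed, while 4 of 5 endothelial and 3 of 5 stellate cell markers were higher in Elf4-/- at an unadjusted p under 0.05, with medians of 0.98 and 0.96. In the interaction none passed, and the medians were -1.39 for Kupffer, -1.94 for endothelial, -1.16 for stellate and 0.58 for hepatocyte markers. The part of these markers in the ribosomal protein values was not tested. In bulk liver, fewer cells of a type and less RNA per cell cannot be told apart.

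The members were also set against properties of their genes. All 81 matched the GENCODE M21 annotation of GRCm38 and lay on 19 chromosomes, 14 of them on chromosome 7. The WT log2 fold change had a Pearson r of 0.28 with log2 transcript length, -0.22 with GC content and -0.03 with mean log2 CPM. It was -0.27 with the log2 number of annotated pseudogenes named after the member. Each was taken over 81 genes and as a description only. With mean log2 CPM the Spearman rho was -0.26, and the median change was 0.79 in the 41 members at or below a mean CPM of 171.4 and 0.47 in the 40 above it. Of the 41 members with transcripts of at most 780 bases, 11 rose in WT (median 0.56), and of the 40 longer ones 20 rose (median 0.79). The 1114 other genes tested that were at or under that length had a WT median of -0.06. A per-library offset for GC content and length left 34 members past the threshold, and of the 31 it lost Rps3, whose log2 fold change went from 0.97 to 0.85 (adjusted p = 0.0536), and Rpl23, which went from 0.80 to 0.61 (adjusted p = 0.0706).

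Ribosomal protein genes have many processed pseudogenes, which limits counting by symbol. By symbols made of a member's symbol followed by -ps, the table listed 109 pseudogenes of 45 members. Their counts made up 2.63% to 2.97% of the member counts in the 8 libraries. Pseudogenes under other symbols were not sought or added, and Rps4l and Rpl6l stayed members, so these counts can miss pseudogenes. Adding the 109 to their parent genes left 31 members past the threshold in WT. Rps7 was lost at an adjusted p of 0.0510, where its log2 fold change went from 0.78 to 0.76. Rps12 was gained at 0.0446. The largest shift was that of Rps10, whose 3 listed pseudogenes held 2122 counts summed over the libraries against 163 for the gene itself, and whose WT log2 fold change went from 0.17 to 0.88 ± 0.31 without passing (adjusted p = 0.0665). In 3 members (Rpl13a, Rps10 and Rpl19) exons overlapped another gene on the same strand, and in 19 members on the opposite strand. The strand setting of the counting is not given in the sources used here, so values of these members are uncertain. Of the 30 members that hold a small nucleolar RNA gene within the gene, 13 rose in WT (median 0.73), and of the 51 others 18 rose (median 0.58).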

How the data were processed

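Per the study's methods and the labels, the authors mapped paired-end reads of liver RNA to mm10 with HISAT2, sorted them with SAMtools, counted reads per gene with HTSeq and tested the counts with DESeq2. Versions, annotation, strand setting and the handling of multiply mapped reads are not given in the sources used here. The deposited counts are whole numbers of reads, listed by gene symbol without normalization, and all 8 library columns were used. The members and the gene lists were chosen with earlier results of these data known. Counts were fitted with edgeR 4.0.16 (R 4.3.3), with TMM scaling, filterByExpr (13993 of 19267 genes kept), 1 model of 4 groups, the quasi-likelihood test, and Benjamini-Hochberg adjustment over all genes tested, at 0.05. The SE is the log2 fold change divided by the square root of F. The edgeR step was tested on simulated data. DESeq2 1.42.0, other scalings, filters and libraries left out were alternatives. The GC and length offset and the addition of pseudogene counts were chosen after seeing the data.

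Gene coordinates, GC content and lengths came from GENCODE M21, where length is the median over the best-supported principal transcripts, and promoter windows from RefSeq on GRCm38.p6. Members named in the text are those highest and lowest in CPM, those with the largest changes in each comparison, the stalk, the 5S RNA proteins, the close relatives, and the most and least even members. From the other lists up to 3 genes past the threshold are named, and others are named because a sentence turns on them. Libraries of 6171051 to 9157362 counts set the precision of low genes such as Rps10. The labels do not say which mice were fed as pairs, and replicate numbers were not used as pairs in the main fit. The correlation of deviations between same-numbered libraries ran from -0.13 to 0.11 over 9398 genes. With 2 libraries a group, this cannot show that no pairing existed. A few genes of the table enter the counts but are not reported by name here.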

Additional observations from a re-analysis of the deposited data

How the results depend on the processing

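In WT, the EtOH diet called 31 members, and 31 to 35 under DESeq2, DESeq2 size factors, other filters, the 4 WT libraries alone, scaling without ribosomal protein or mitochondrial genome genes, the GC and length offset, and added pseudogene counts. In those fits 8.0% to 13.3% of all genes were called higher. Library totals alone moved the median of all genes to 0.44 and gave a member median of 1.07. Under them 59 members were called, against 24.5% of all genes called higher. The number ran from 5 to 39 with 1 library left out, and the median from 0.36 to 1.01. With the replicate block, 35 members passed in WT (median 0.67), the 31 among them, against 9.65% of all genes called higher. The labels tie those libraries by a number alone. In Elf4-/- livers 2 members were called (2.47%, against 1.71% of all genes called higher) and 5 under DESeq2 (6.17%, against 3.23%). With library totals alone 1 was called, against 1.34% of all genes, and with the 4 Elf4-/- libraries alone 0, against 0.166%. The Elf4-/- median ran from 0.17 to 0.58 with 1 library left out. Between genotypes on EtOH the median ran from -0.29 to 0.04 with 1 library left out. It was -0.31 with library totals alone, where the median of all genes was -0.23. No alternative called a member between genotypes or in the interaction.

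The median between genotypes on the Control diet ran from -0.10 to 0.48 with 1 library left out, the lowest without WT-Control replicate 1. The median interaction ran from -0.58 to -0.00718, again with WT-Control replicate 1 left out at the end near 0, and was -0.71 with library totals alone, where the median of all genes was -0.47 and the members lay 0.24 below it. That scaling moves all genes together, by 0.44 in WT, -0.23 between genotypes on EtOH and 0.24 on the Control diet, and under it values that had not passed changed sign for Rpl14 (0.11) and Rpl28 (0.13) in WT, Rpl37 between genotypes on EtOH (-0.0231), Rpl21 (0.16), Rpl27 (0.15) and Rpl38 (0.13) between genotypes on the Control diet, and Rpl22l1 (-0.21), Rpl27 (-0.27) and Rpl38 (-0.25) in the interaction. With 1 library left out, Rpl37 ran from -0.27 to 0.55 and Rps21 from -0.35 to 0.65 between genotypes on EtOH, Rpl21 from -0.33 to 0.18, Rpl27 from -0.23 to 0.091, Rpl38 from -0.29 to 0.10 and Rps28 from -0.0291 to 1.28 between genotypes on the Control diet, and Rpl38 from -0.00902 to 0.41 in the interaction. The cause was not tested, except that fewer libraries enter a fit with 1 left out.

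The ribosomal protein share without mitochondrial genome genes was 1.40% for WT-Control, 2.28% for WT-EtOH, 1.57% for Elf4-/--Control and 1.98% for Elf4-/--EtOH, and without the 10 most abundant genes 1.48%, 2.39%, 1.69% and 2.08%, each above the share of all counts because the total is smaller. Differences between members were not tested.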

Other observations

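Among the 77 ribosomal proteins of mitochondria, which serve the ribosome that translates the mitochondrial genome, the largest changes in WT under the EtOH diet went both ways. Mrpl46 rose by 1.65 ± 0.27 (edgeR adjusted p = 0.00445), Mrps23 by 1.61 ± 0.30 (adjusted p = 0.00639), and Mrpl18 fell by 1.53 on the log2 scale (SE 0.33, adjusted p = 0.0114). Mrpl15 rose in WT by 1.39 ± 0.19 (adjusted p = 0.00245) and in Elf4-/- by 0.81 ± 0.18 (adjusted p = 0.0485). Among other mRNAs with a TOP tract, Btf3, a partner of new chains at the ribosome, rose in WT by 1.18 ± 0.25 (adjusted p = 0.0105), and Npm1, a nucleolar chaperone, by 0.88 ± 0.23 (adjusted p = 0.0244).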
